A study of Bubalus bubalis with 12 samples.

Results

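The genes described are 84 genes of the cell division cycle measured in the corpus luteum (CL) of buffalo cows before and after luteolysis was induced with a prostaglandin F2α (PGF2α) analogue. They were taken from 9155 genes by symbol: cyclins A, B, D and E, numbered cyclin-dependent kinases (CDKs), CDK inhibitors, CDC, MCM, BUB, aurora, polo-like, CENP, E2F and CHEK genes, plus PCNA, MAD2L1, RRM1 and RRM2. CDC42 genes were left out. The rule itself used symbols only, and each gene was read at its brightest probe set on average. The group was, however, chosen with earlier results of these data known. The 84 genes had 120 probe sets, and 28 of them had more than 1. By role there were 8 cyclins, 14 CDKs, 4 CDK inhibitors, 1 CDC25 phosphatase, 4 E2F transcription factors, 8 replication licensing genes, 3 DNA synthesis genes, 6 aurora and polo kinases, 5 spindle checkpoint genes, 4 ubiquitin enzymes or subunits, 11 centromere genes and the checkpoint kinase CHEK1. The other 15 carry a cell cycle symbol but act mainly elsewhere, for example CDK5RAP1 in mitochondrial tRNA modification and CDC40 in splicing. MKI67, TOP2A, CDKN1B, CDKN3, CDK6 and MCM2 were not analysed here.

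Cloprostenol, which acts as PGF2α does and brings on regression of the gland, was given at 500 µg intramuscularly on day 11 of the estrous cycle. Whole CL were collected from 2 animals at 3 h, 3 animals at 6 h and 3 animals at 18 h after the injection, and from 4 untreated control animals on the same day (0 h). Each of the 12 CL was run on 1 GeneChip Bovine Genome Array.

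Progress through the cell cycle is driven by CDKs, which act only when bound to a cyclin. D-type and E-type cyclins act before DNA is copied, and cyclin A and the B-type cyclins act from DNA synthesis to mitosis. CDK inhibitors hold the kinases back, and E2F factors control the genes of the next phase. Steroidogenic luteal cells have largely left the cycle in a mid-cycle CL, and endothelial cells are known as the main dividing cells of the gland. A whole CL mixes these cell types, so fewer cells of a type and less RNA per cell cannot be told apart.

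Values are log2 signals made by robust multichip average (RMA), so a difference of 1 is a 2-fold change. The probes were designed on cattle sequence and each binds with its own strength, so the level of 1 probe set cannot be set against another's. RMA compresses differences at low signal, and 68 of the 84 genes lay above the dimmest 40% of probe sets. A gene was called changed at an adjusted p under 0.05 (limma's moderated test, Benjamini-Hochberg over 24016 probe sets), and ± after a difference is its standard error. The groups share 1 estimate of the spread. A fit that leaves out either of the 3 h arrays keeps 1 array at 3 h, which adds nothing to this spread. For comparisons not involving 3 h, leaving out either array is therefore the same fit.

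Some arrays stood apart. The 3 h animals differed more than 2-fold in 18 of the 84 genes (21.4%, against 6.61% of all genes), and 16 of these were higher in 3 h replicate 1. Control replicates 1 and 4 were the most alike of all pairs within a group (r = 0.9969). Of all genes 0.0109% were more than 2-fold apart between them, against 1.05% to 6.61% in the other pairs within a group. Of the 84 genes 0 were, as between control replicates 2 and 3 and between 18 h replicates 1 and 2. The labels call them separate animals, and whether they are independent was not tested. Counts with control replicates 1 and 4 averaged are given with the alternatives. Luteal cell markers, on average, lay lower at 18 h (mean log2 level of the 10 markers 12.12 to 12.64) than at 0 h (13.01 to 13.41), and 6 of the 10 fell. They were below the control range at 6 h too (12.53 to 12.93), with 2 of 10 lower. The mean level of the mural cell markers (9 measured) was 9.7 to 9.91 at 6 h and 9.85 to 10.16 at 18 h. Both ranges lay above the control range of 8.84 to 9.66, and 3 markers were called higher at each time. Their medians relative to the control mean overlapped the controls, however. These were 0.39, 0.23 and 0.56 at 6 h, 0.11, 0.47 and 0.6 at 18 h, and -0.26 to 0.48 in control CL. Macrophage markers (9 measured) spanned 9.14 to 10.04 at 18 h and 8.24 to 9.92 at 0 h, and 4 rose, while endothelial markers (15 measured) spanned 9 to 9.15 at 18 h and 8.85 to 9.18 at 0 h, with 4 higher and 2 lower. At 6 h the endothelial markers spanned 9.14 to 9.32, with 5 higher and 2 lower. The part of cell composition in the results that follow was not tested.

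At 6 h the CDK inhibitor CDKN1A and the stress-linked kinase PLK3 were up regulated, and the CDK inhibitor CDKN1C and cyclin D1 (CCND1) were down regulated. The calls of CDKN1A and CCND1 held under all 21 alternatives. Those of PLK3 and CDKN1C were lost in 5 and 4 of the 12 fits leaving out 1 array. At 18 h CCND1 was lowest, the inhibitor CDKN2B and the replication helicase subunit MCM7 were higher than in control CL, and CDKN1A did not pass the test. In total 11 of the 84 genes were called at 6 h against 0 h, 7 higher and 4 lower (13.1%, against 14.2% of all genes). Among all genes 6.55% were called higher at 6 h and 7.66% lower. At 18 h 12 of the 84 were called, 8 higher and 4 lower (14.3%, against 15.9% of all genes; 7.55% higher and 8.35% lower). The shares were thus near those of all genes at both times. At 3 h limma called 0 of the 84 (0.0328% of all genes were called), with 9 at an unadjusted p under 0.05 (999 of all 9155 genes were). The median difference of the 84 genes was 0.06 at 3 h, -0.01 at 6 h and -0.07 at 18 h, and that of all genes was -0.01, -0.05 and -0.02. At 6 h 13 genes lay wholly above and 12 wholly below the controls (13.3% and 17.8% of all genes did), and at 18 h 14 and 17 did (14.6% and 16.9% of all genes). Of the 20 genes called in at least 1 comparison, CCND1, CCNE1, CDK11B and CDK2AP1 were called at both 6 h and 18 h against 0 h, 7 were called at 6 h only and 8 at 18 h only. The comparison of 18 h with 6 h, which tests the difference between these times itself, called 0 of the 84. The counts depended on single arrays. Leaving out control replicate 1, control replicate 4 or 6 h replicate 1 gave a 6 h count of 4, leaving out control replicate 2 gave 6, and leaving out 6 h replicate 2 gave 3. The 18 h count was 5 without control replicate 1, control replicate 4, 18 h replicate 1 or 18 h replicate 3, and 6 without 18 h replicate 2.

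**Figure D1:**
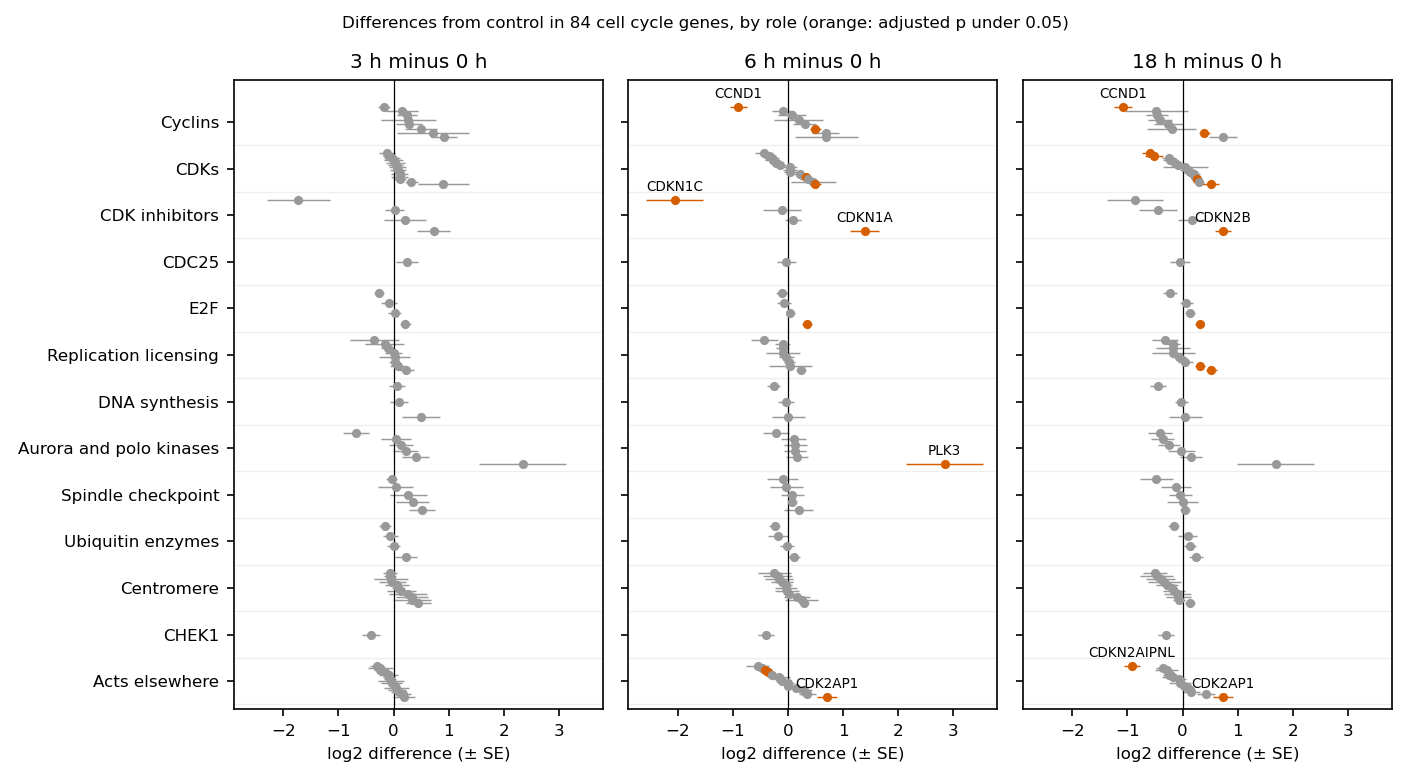
Log2 difference from control (horizontal axis, ± SE) of each of the 84 genes at 3 h (2 animals), 6 h (3) and 18 h (3) against 4 control animals, grouped by role. Orange points have an adjusted p under 0.05 (0 at 3 h, 11 at 6 h, 12 at 18 h), and called genes that differ by more than 0.6 are named.

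Of the D-type cyclins, which bind CDK4 and CDK6 and couple growth signals to entry into the cycle, CCND1 fell. CCND1 stood at 7.50, 7.08, 6.74 and 6.95 in control CL, at 7.28 and 7.35 at 3 h, at 6.09, 6.24 and 6.19 at 6 h, and at 5.98, 6.21 and 5.78 at 18 h. The 3 h arrays lay within the control range, and all 6 arrays at 6 h and 18 h lay below every control and 3 h array. The difference was -0.90 ± 0.16 at 6 h (1.86-fold lower, adjusted p = 0.00674) and -1.08 ± 0.16 at 18 h (2.12-fold lower, adjusted p = 0.00183). Both calls held under all 21 alternatives. Against 3 h, CCND1 was lower by -1.14 ± 0.19 at 6 h (adjusted p = 0.0440), a call that 9 of the 12 fits leaving out 1 array lost, and by -1.33 at 18 h (adjusted p = 0.0056), a call kept under all alternatives.

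Cyclin D2 (CCND2) ran the other way without passing the test. Its values were 7.77, 8.69, 8.91 and 7.82 at 0 h, 8.63 and 8.94 at 3 h, 8.97, 8.89 and 9.06 at 6 h, and 8.97, 8.90 and 9.21 at 18 h. Control replicates 1 and 4 were the lowest of the 12 arrays, and the other 2 controls lay among or close to the treated arrays. The difference was 0.68 at 6 h (adjusted p = 0.113) and 0.73 at 18 h (adjusted p = 0.0842). Cyclin D3 (CCND3) read 9.84, 9.99, 9.64 and 10.02 at 0 h, 10.61 and 9.70 at 3 h, 9.46, 9.89 and 10.00 at 6 h, and 9.38, 9.46 and 9.41 at 18 h. All 3 arrays at 18 h were below the lowest control array, but the difference of -0.46 ± 0.20 did not pass (adjusted p = 0.173). This difference passed in the fit that left out either 3 h array.

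The E-type cyclins, partners of CDK2 at the start of DNA synthesis, differed in their time course. Cyclin E1 (CCNE1) stood at 6.73, 6.71, 6.66 and 6.60 at 0 h, at 6.64 and 6.34 at 3 h, at 7.23, 7.17 and 7.09 at 6 h, and at 7.12, 6.91 and 7.15 at 18 h. The 6 arrays at 6 h and 18 h were all above the control range. CCNE1 rose by 0.49 ± 0.10 at 6 h (adjusted p = 0.0117) and by 0.39 ± 0.10 at 18 h (adjusted p = 0.0279). Its second probe set gave 0.42 and 0.35 without passing (adjusted p = 0.0616 and 0.112). The call at 6 h was lost without 6 h replicate 1 (adjusted p = 0.0527) and that at 18 h without control replicate 1 or 4 or 18 h replicate 1 or 3 (adjusted p = 0.054 to 0.109).

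Cyclin E2 (CCNE2) was highest at 3 h and lowest at 18 h. It read 5.94, 6.71, 6.05 and 6.25 at 0 h, 7.37 and 6.92 at 3 h, 6.13, 6.75 and 6.72 at 6 h, and 5.70, 5.69 and 6.10 at 18 h. Both 3 h arrays exceeded all 10 others. Against 3 h, CCNE2 fell by 1.31 ± 0.26 on the log2 scale at 18 h (adjusted p = 0.0227), whereas the differences from control, 0.91 ± 0.24 at 3 h (adjusted p = 0.276) and -0.41 ± 0.21 at 18 h (adjusted p = 0.267), were not called. Without 3 h replicate 1 the difference between 18 h and 3 h was -1.09 (adjusted p = 0.0876), and the call was also lost without 18 h replicate 1 (adjusted p = 0.0819) or 18 h replicate 2 (adjusted p = 0.0637). The CCNE2 probe set was among the dimmest 40%.

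The mitotic cyclins were not called at any time. Cyclin B1 (CCNB1), which activates CDK1 at entry into mitosis, read 6.90, 7.08, 7.15 and 7.14 at 0 h, 9.02 and 6.53 at 3 h, 6.52, 8.02 and 8.72 at 6 h, and 6.05, 6.62 and 7.08 at 18 h. Its controls spanned 0.25 log2 units, whereas the 3 h animals were 2.49 apart. Cyclin B2 (CCNB2) had the same order of animals within 3 h, 6 h and 18 h, with 7.52, 7.43, 7.82 and 7.29 at 0 h, 8.86 and 6.71 at 3 h, 6.96, 7.76 and 8.38 at 6 h, and 7.00, 7.40 and 7.55 at 18 h. Cyclin A2 (CCNA2), which works through DNA synthesis into mitosis, read 5.68, 5.83, 5.72 and 6.06 at 0 h, 6.44 and 5.52 at 3 h, 5.45, 5.75 and 6.51 at 6 h, and 5.73, 5.34 and 5.61 at 18 h. Adjusted p-values for these 3 cyclins against 0 h lay between 0.519 and 0.909.

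Of the 4 CDK inhibitors measured, CDKN1A and CDKN1C were called at 6 h against 0 h, CDKN2B at 18 h and CDKN2C at no time. Their courses were not compared with each other by a test. CDKN1A encodes p21, an inhibitor of CDK2 that p53 and stress signals induce. Its values were 9.82, 10.49, 10.07 and 9.89 at 0 h, 10.26 and 11.35 at 3 h, 11.39, 11.74 and 11.25 at 6 h, and 10.35, 9.83 and 10.54 at 18 h. The 3 arrays at 6 h were above all controls, 3 h replicate 3 had already reached their range while 3 h replicate 1 lay within the control range, and the 18 h arrays were back among or next to the controls. CDKN1A rose by 1.39 ± 0.26 at 6 h (2.62-fold, adjusted p = 0.00836), a call kept under all 21 alternatives, and differed by 0.17 ± 0.26 at 18 h (adjusted p = 0.755). Between 18 h and 6 h the difference was -1.22 ± 0.28 (adjusted p = 0.0979), which passed in the fit that left out either 3 h array.

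CDKN1C encodes p57, an inhibitor found in cells that have left the cycle. It read 12.25, 10.42, 11.09 and 12.14 at 0 h, 9.52 and 9.97 at 3 h, 10.37, 8.58 and 9.30 at 6 h, and 9.92, 10.71 and 11.23 at 18 h. The controls were spread over 1.83 log2 units, all 5 arrays at 3 h and 6 h lay below the lowest control, and the 18 h arrays overlapped the control range. CDKN1C fell by 2.06 ± 0.51 on the log2 scale at 6 h (4.17-fold lower, adjusted p = 0.0253), and differed by -1.73 ± 0.57 at 3 h (adjusted p = 0.353) and -0.86 at 18 h (adjusted p = 0.33). The call at 6 h was lost without control replicate 1 (adjusted p = 0.0729), control replicate 4 (0.0745), 6 h replicate 2 (0.113) or 6 h replicate 3 (0.0695). It was also lost with control replicates 1 and 4 averaged and with the replicate number as a block. Of the 3 probe sets of CDKN1C only this one was called, and the others gave -0.42 and -0.07 at 6 h.

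CDKN2B encodes p15, an inhibitor of CDK4 and CDK6 that TGFβ induces. Its values were 5.97, 6.27, 5.87 and 5.76 at 0 h, 5.94 and 6.03 at 3 h, 6.05, 5.95 and 6.16 at 6 h, and 6.73, 6.99 and 6.38 at 18 h. The 3 arrays at 18 h were the highest of the 12. CDKN2B rose by 0.73 ± 0.15 at 18 h (1.66-fold, adjusted p = 0.0101) and kept this call in all 20 alternatives that tested it, the dim filter having left it out. The related inhibitor CDKN2C (p18) was not called. It read 8.16, 8.38, 8.02 and 8.41 at 0 h, 9.22 and 7.68 at 3 h, 7.68, 7.93 and 8.79 at 6 h, and 7.51, 7.88 and 7.98 at 18 h, and all 3 arrays at 18 h were below the lowest control (-0.45, adjusted p = 0.454).

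Among the polo-like kinases, PLK3, which responds to stress and is known as an early response gene, had the largest rise of the 84 genes at 6 h. PLK3 stood at 7.72, 7.10, 7.24 and 7.63 at 0 h, at 7.89 and 11.64 at 3 h, at 10.70, 10.86 and 9.24 at 6 h, and at 9.67, 8.69 and 8.97 at 18 h. All 8 treated arrays were above all 4 controls, and the 3 h animals were 3.75 apart. PLK3 rose by 2.84 ± 0.70 at 6 h (7.18-fold, adjusted p = 0.0249), and differed by 2.34 ± 0.79 at 3 h (adjusted p = 0.367) and 1.69 ± 0.70 at 18 h (adjusted p = 0.148). The difference at 18 h passed in the fit that left out either 3 h array. The call at 6 h was lost without control replicate 1, 2 or 4 or 6 h replicate 1 or 2, with differences of 2.55 to 2.95 and adjusted p-values of 0.0549 to 0.103. It was also lost with control replicates 1 and 4 averaged and with the replicate number as a block. When 3 h replicate 1 was left out, PLK3 differed by 4.22 at 3 h, but this rests on 1 animal, which is assumed to vary like the other groups.

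PLK2, another stress-linked polo kinase, had 11.03, 10.84, 10.35 and 11.04 at 0 h, 10.57 and 9.69 at 3 h, 11.00, 10.98 and 10.85 at 6 h, and 10.39, 10.45 and 10.53 at 18 h. Its 3 h replicate 3 was lowest of the 12 arrays, where PLK3 was highest. PLK2 was not called (-0.68 ± 0.23 at 3 h, adjusted p = 0.373). PLK1, the mitotic member, read 7.62, 7.75, 7.67 and 7.72 at 0 h, 8.61 and 7.57 at 3 h, 7.38, 7.89 and 8.09 at 6 h, and 7.18, 7.20 and 7.45 at 18 h. The 18 h arrays all lay below the narrow control range, yet the difference of -0.41 ± 0.22 did not pass (adjusted p = 0.278). The aurora kinase AURKA, which organises the spindle poles, had 8.07, 8.12, 7.79 and 7.95 at 0 h, 8.55 and 7.68 at 3 h, 7.86, 8.08 and 8.48 at 6 h, and 7.69, 7.73 and 7.78 at 18 h, again with all 18 h arrays below the controls, if narrowly, and no call (-0.25, adjusted p = 0.485). The second probe set of AURKA differed in the other direction at 18 h, also without a call.

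**Figure D2:**
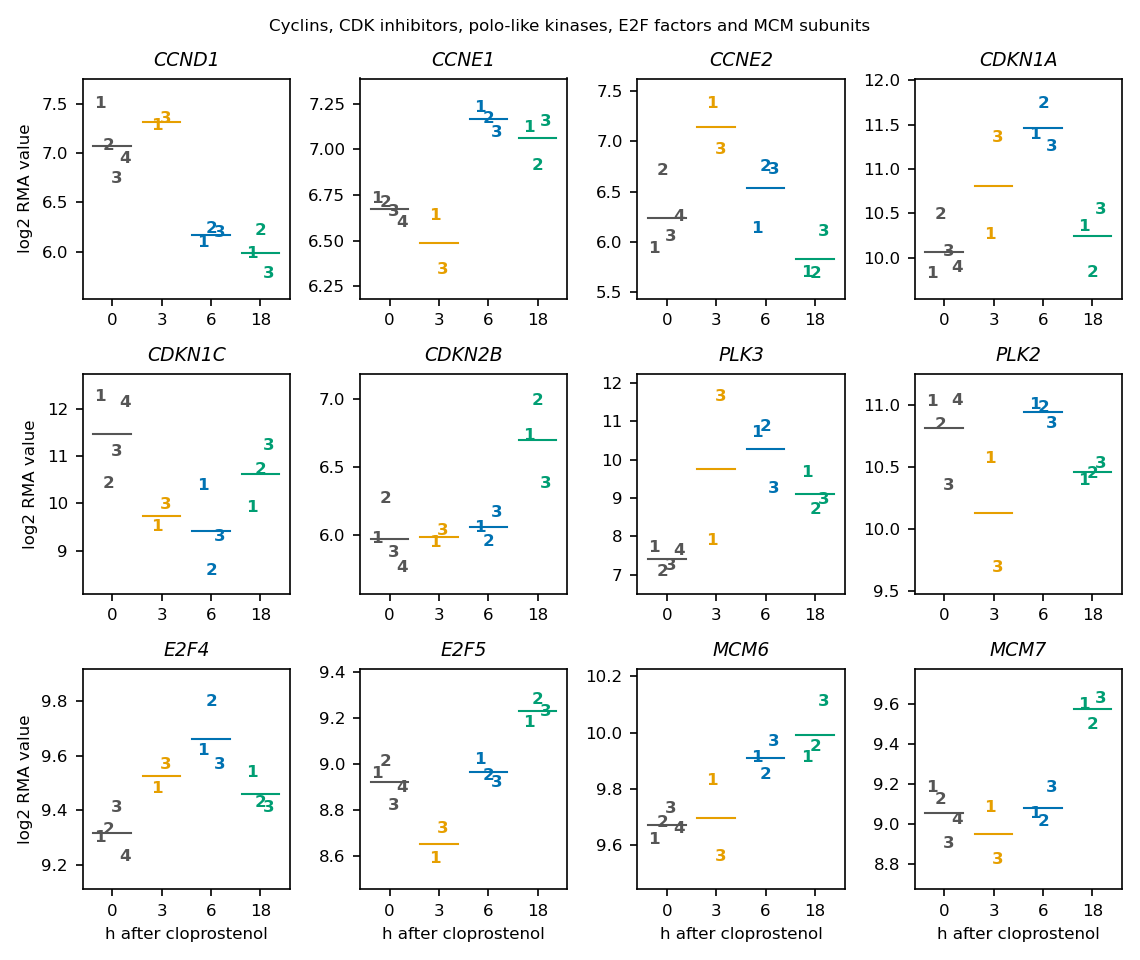
Log2 RMA value on each array (vertical axis) by h after cloprostenol for 12 genes, where each digit is an animal's replicate number and the line is the group mean. The 6 h and 18 h arrays of CCND1 lie below all controls, those of CCNE1 lie above them, those of CDKN1A lie above them at 6 h, and those of CDKN2B and MCM7 at 18 h.

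Of the 14 CDKs, 2 were called at 6 h (14.3%, against 14.2% of all genes) and 4 at 18 h (28.6%, against 15.9%). CDK9, which releases paused RNA polymerase II, read 9.60, 9.63 and 9.58 at 6 h, against 9.07, 9.05, 9.06 and 9.26 in control CL, and rose by 0.49 ± 0.10 (adjusted p = 0.0133; 0.0548 without 6 h replicate 2). CDK11B, a kinase of splicing and transcription, rose by 0.32 ± 0.08 at 6 h (adjusted p = 0.0272) and 0.27 ± 0.08 at 18 h (adjusted p = 0.0444). CDK13, a partner of cyclin K in transcription elongation, had 7.65, 7.63, 7.35 and 7.70 at 0 h, 7.20 and 7.72 at 3 h, 7.25, 7.31 and 7.28 at 6 h, and 6.96, 6.99 and 7.00 at 18 h. The 18 h arrays were the lowest of the 12. CDK13 fell by 0.60 ± 0.13 on the log2 scale at 18 h (adjusted p = 0.0101), and its other 2 probe sets gave -0.04 and -0.34 and were not called. CDK7, the CDK-activating kinase that is also part of the transcription factor TFIIH, rose by 0.51 ± 0.15 at 18 h (adjusted p = 0.0488), but its second probe set gave -0.37 (adjusted p = 0.419), and 10 of the 12 fits that left out 1 array lost the call. CDK5, known for its role in neurons, fell by 0.52 ± 0.16 on the log2 scale at 18 h (adjusted p = 0.0494), a call that 8 of those 12 fits lost. At 6 h CDK5 (-0.44) passed in the fit that left out either 3 h array. The calls of CDK11B were lost in 5 of the 12 fits at 6 h and in 9 at 18 h, with adjusted p-values of up to 0.127 and 0.178.

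The CDKs that drive the cycle itself were not called. CDK1, the kinase of mitosis, read 8.51, 8.25, 8.61 and 8.45 at 0 h, 10.17 and 8.53 at 3 h, 7.94, 9.09 and 9.70 at 6 h, and 8.21, 8.52 and 8.80 at 18 h, so the treated animals spread widely around tight controls. CDK2 read 8.57, 8.70, 8.55 and 8.64 at 0 h, 8.71 and 8.45 at 3 h, 8.63, 8.53 and 8.78 at 6 h, and 8.87, 8.38 and 8.86 at 18 h. CDK4 had 9.61, 9.71, 9.41 and 9.67 at 0 h, 9.88 and 9.48 at 3 h, 9.80, 9.64 and 9.49 at 6 h, and 9.72, 9.88 and 9.81 at 18 h. For CDK2 the 95% interval of the difference was -0.26 to 0.31 at 6 h and -0.20 to 0.37 at 18 h, and for CDK4 it was -0.22 to 0.31 and -0.06 to 0.47.

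E2F4, a repressor of cell cycle genes in resting cells, read 9.62, 9.80 and 9.57 at 6 h, against 9.30, 9.33, 9.41 and 9.23 in control CL. E2F4 rose by 0.35 ± 0.09 at 6 h (adjusted p = 0.0277), a call lost without control replicate 1, 2 or 4 or 6 h replicate 1 or 2 (adjusted p of up to 0.132). E2F5, a repressor of the same kind, had 8.96, 9.01, 8.82 and 8.90 at 0 h, 8.59 and 8.72 at 3 h, 9.02, 8.95 and 8.92 at 6 h, and 9.18, 9.28 and 9.23 at 18 h. Both 3 h arrays were below all controls and all 18 h arrays were above them. E2F5 rose by 0.31 ± 0.08 at 18 h against 0 h (adjusted p = 0.0316, lost in 6 of the 12 fits leaving out 1 array) and by 0.58 at 18 h against 3 h (adjusted p = 0.0131, kept in all 12). The call against 3 h was lost with the replicate number as a block and with only the 2 groups. The activator E2F1 had 5.97, 6.05, 5.82 and 5.88 at 0 h, 5.98 and 5.92 at 3 h, 5.76, 5.66 and 6.04 at 6 h, and 6.05, 5.91 and 6.05 at 18 h, at a level among the dimmest 40% of probe sets, and was not called.

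MCM7 and MCM6, subunits of the MCM helicase that is loaded on DNA before replication, rose at 18 h, and the other subunits measured did not pass the test. MCM7 stood at 9.18, 9.12, 8.90 and 9.02 at 0 h, at 9.08 and 8.82 at 3 h, at 9.05, 9.01 and 9.18 at 6 h, and at 9.60, 9.50 and 9.63 at 18 h. The 18 h arrays (9.50 to 9.63) all lay above the other 9 (8.82 to 9.18). MCM7 rose by 0.52 ± 0.10 at 18 h against 0 h (adjusted p = 0.00677), a call kept under all alternatives, and by 0.63 against 3 h (adjusted p = 0.0210). The call against 3 h was lost without 3 h replicate 3, 18 h replicate 1 or 18 h replicate 3. It was also lost with the replicate number as a block and with only the 2 groups. MCM6 read 9.91, 9.95 and 10.11 at 18 h, against 9.62, 9.68, 9.73 and 9.66 in control CL, and rose by 0.32 ± 0.09 (adjusted p = 0.0452), a call that 9 of the 12 fits leaving out 1 array lost. MCM3, MCM4 and MCM5 differed by -0.32, -0.17 and -0.18 at 18 h and were not called. The second probe set of MCM3 differed in the other direction, also without a call.

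The DNA synthesis genes were not called in the fit of all 12 arrays. PCNA, the sliding clamp of DNA polymerase, read 10.95, 10.73, 10.86 and 11.00 at 0 h, 11.24 and 10.73 at 3 h, 10.62, 10.85 and 11.06 at 6 h, and 10.26, 10.40 and 10.65 at 18 h. Its 18 h arrays were all below the controls, with a difference of -0.45 ± 0.15 (adjusted p = 0.076). This difference passed in the fit that left out either 3 h array. RRM2, the ribonucleotide reductase subunit made in S phase, had 5.58, 5.67, 5.39 and 5.61 at 0 h, 6.63 and 5.51 at 3 h, 5.0, 5.43 and 6.26 at 6 h, and 5.69, 5.25 and 5.91 at 18 h, with its lowest and next-highest values in the same group of 6 h animals.

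No spindle checkpoint gene passed the test. BUB1, a checkpoint kinase at the kinetochore, read 4.97, 5.05, 5.14 and 5.62 at 0 h, 6.19 and 5.24 at 3 h, 5.13, 5.28 and 5.40 at 6 h, and 5.05, 5.15 and 5.25 at 18 h. Of the 11 centromere genes 10 had a negative difference at 18 h (median -0.19, range -0.50 to 0.14) and the 18 h arrays of 4 lay wholly below the controls (16.9% of all genes did), but at their brightest probe sets 0 were called in the comparisons with 0 h (1 at an unadjusted p under 0.05 at 18 h). The second probe set of CENPM, a constitutive centromere protein, fell by 0.54 ± 0.14 on the log2 scale at 18 h (adjusted p = 0.0281), whereas the brighter one gave -0.09 (adjusted p = 0.874). CENPI, another such protein, was called only by the F test over 3, 6 and 18 h together (adjusted p = 0.0375). It read 7.08, 7.07, 7.22 and 7.20 at 0 h, 7.11 and 7.06 at 3 h, 7.48, 7.27 and 7.56 at 6 h, and 6.93, 6.88 and 7.04 at 18 h, so that the groups at 6 h and 18 h lay on opposite sides of the controls. The F test called 12 of the 84 genes in all, against 14.1% of all genes. The 4 ubiquitin enzymes or subunits, CDC25C and CHEK1 were not called (the differences of CHEK1 were -0.41, -0.40 and -0.30 at 3, 6 and 18 h).

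Many, but not all, of the replication and mitosis genes differed widely between animals of 1 time point. Of the 33 licensing, DNA synthesis, aurora and polo, spindle checkpoint and centromere genes, 24 were farther apart between the 2 animals at 3 h than among the 4 controls (72.7%, against 40.3% of all genes). At 6 h 22 were (66.7%, against 33.1%) and at 18 h 19 (57.6%, against 35.2%). The 9 that were not wider at 3 h included BUB3 (0.12 apart at 3 h, against 0.13 at 0 h), RRM1 (0.09, against 0.23) and CENPI (0.05, against 0.15). Over the 33 genes, 3 h replicate 1 was the highest of the 12 arrays for 18 (54.5%), and 3 h replicate 3 was the lowest for 10. Over all genes these shares were 15.6% and 13.5%. The median of the 84 genes relative to the control mean was 0.23 in 3 h replicate 1 and -0.12 in 3 h replicate 3, and for the spindle checkpoint genes it was 0.83 and -0.23. Of the 84 genes 63 (75%, against 56.8% of all genes) were higher in 3 h replicate 1 than in 3 h replicate 3. CDC7, the kinase that fires replication origins, read 7.47 and 5.18 in these animals, against 6.62, 6.35, 6.84 and 6.88 in control CL.

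The 6 h animals spread in the same genes, with 6 h replicate 1 low and 6 h replicate 3 high. The median of the cyclins relative to control was -0.40, 0.37 and 0.58 in 6 h replicates 1, 2 and 3, and that of the centromere genes was -0.27, -0.01 and 0.23. Only 21 of the 84 genes (25%, against 44.6% of all genes) were higher in 6 h replicate 1 than in 6 h replicate 3, including 0 of the 8 licensing and 0 of the 11 centromere genes. In the 18 h animals the cyclins stood at -0.50, -0.43 and -0.06 and the centromere genes at -0.26, -0.26 and -0.22. In control CL the medians of the cyclins lay between -0.09 and 0.03 and those of the centromere genes between -0.04 and 0.06. By these medians the 18 h animals were farther apart than the controls in the cyclins but not in the centromere genes. Single genes did not all follow. CCND2 spanned 0.31 at 18 h and 1.14 at 0 h, CCNB1 1.03 and 0.25, and CENPF 0.62 and 0.19.

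Taken as deviations from the group means over the 12 arrays, the genes of some roles moved together and those of others did not. The median pairwise r was 0.65 among the licensing genes, 0.68 among the DNA synthesis genes, 0.60 among the aurora and polo kinases, and 0.48 among both the spindle checkpoint and the centromere genes. It was 0.24 among the cyclins, 0.03 among the CDKs, -0.20 among the CDK inhibitors, -0.06 among the E2F genes, -0.09 among the ubiquitin genes and 0.02 among all genes. With the 3 h animals left out (10 arrays) it was 0.45 for licensing, 0.68 for DNA synthesis, 0.32 for aurora and polo, 0.23 for spindle checkpoint and 0.26 for centromere genes. The points share arrays and genes are not independent, so these are descriptions. The signal of the 3′ probes over the 5′ probes of actin, a measure of RNA integrity, was 1.35 and 1.11 (log2) in 3 h replicates 1 and 3, within the range of the 12 arrays (0.91 to 2.37), and that of GAPD was 0.03 and 0.21 (range 0.03 to 0.25). Among the marker lists, medians relative to control in 3 h replicates 1 and 3 were -0.37 and 0.61 for neutrophil, 0.30 and -0.01 for fibroblast, 0.19 and -0.02 for lymphocyte, -0.02 and 0.23 for endothelial, 0.12 and 0.25 for mural, 0.27 and 0.38 for macrophage, -0.14 and -0.09 for luteal and -0.29 and -0.43 for granulosa markers. In 6 h replicates 1 and 3 those of luteal markers were -0.61 and -0.28, of endothelial markers 0.37 and 0.12, of mural markers 0.39 and 0.56 and of lymphocyte markers -0.27 and -0.13. The part of cell composition in the spread between animals was not tested.

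**Figure D3:**
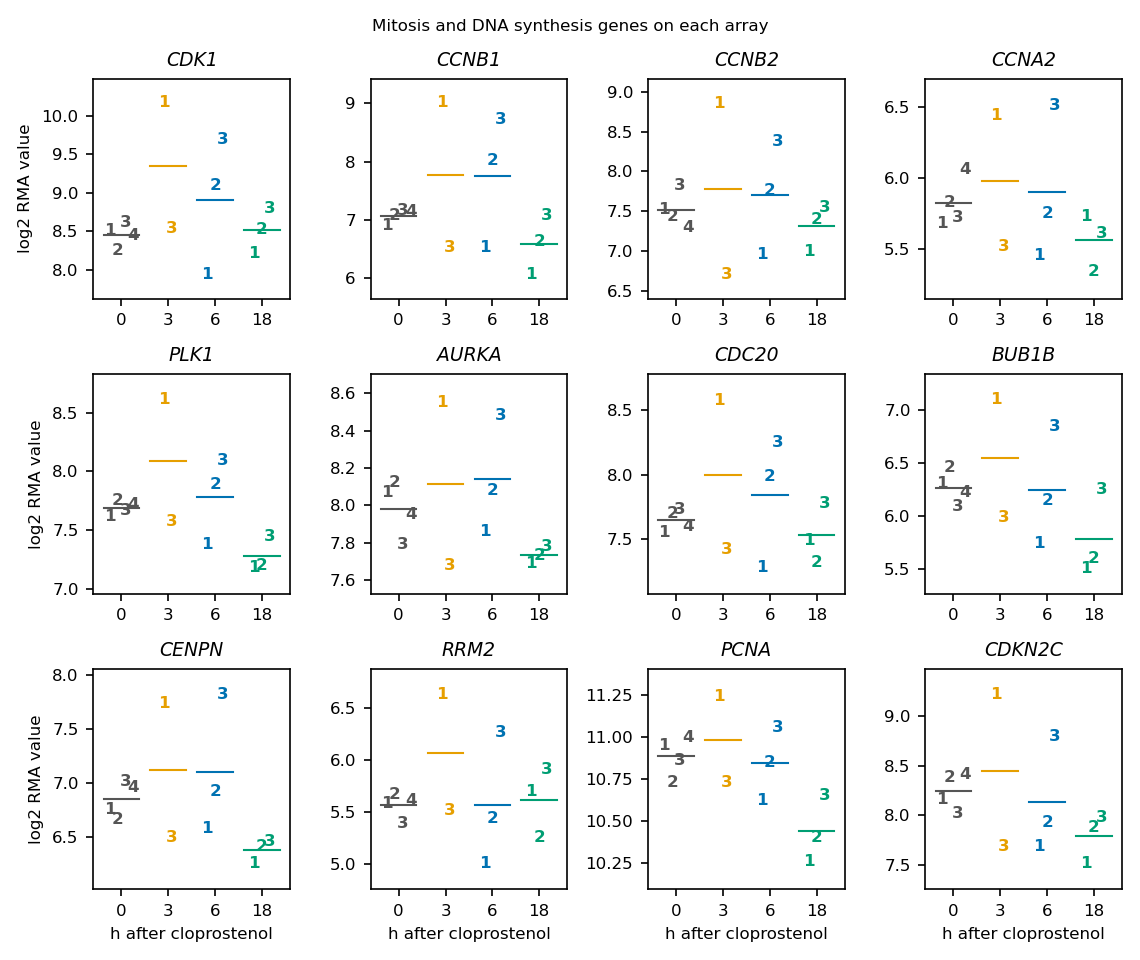
Log2 RMA value on each array (vertical axis) by h after cloprostenol for 12 genes of mitosis, DNA synthesis and the inhibitor CDKN2C, where each digit is an animal's replicate number and the line is the group mean. Control animals lie close together, whereas 3 h replicate 1 is above 3 h replicate 3 and 6 h replicate 3 is above 6 h replicate 1 in all 12 genes shown. Of all 84 genes, 63 were higher in 3 h replicate 1 than in 3 h replicate 3, and 21 were higher in 6 h replicate 1 than in 6 h replicate 3.

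**Figure D4:**
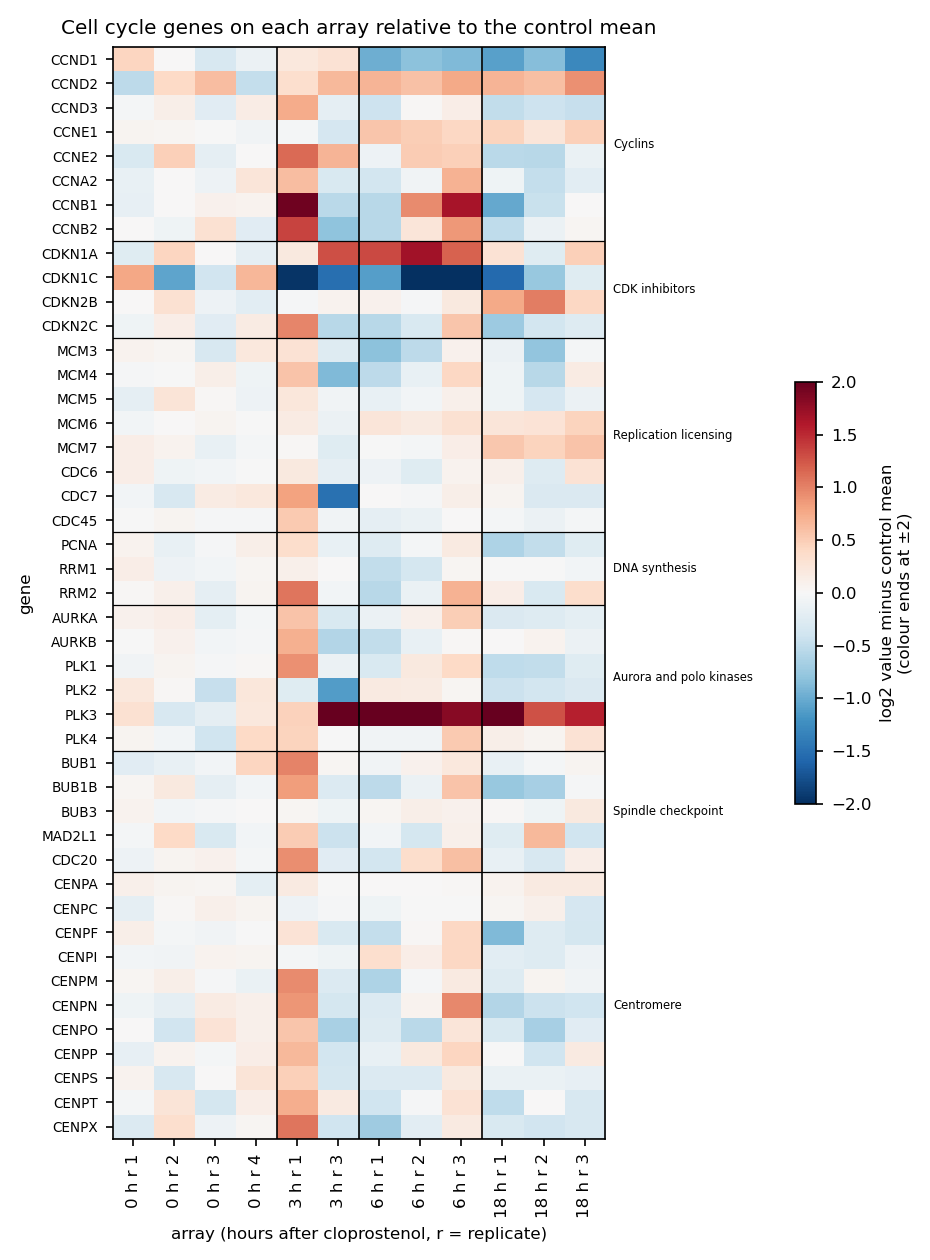
Log2 value minus the control mean on each of the 12 arrays for the cyclins, CDK inhibitors, licensing, DNA synthesis, aurora and polo, spindle checkpoint and centromere genes (red higher, blue lower, colour ends at ±2). Columns 3 h replicate 1 and 6 h replicate 3 are red, and 3 h replicate 3 and 6 h replicate 1 blue, through most of the replication and mitosis genes, while CCND1, CDKN1A, CDKN1C and PLK3 change across a whole time point.

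Comparisons with 3 h rest on 2 unlike animals. Against 3 h limma called 1 gene at 6 h (CCND1; 1.19%, against 0.229% of all genes) and 6 genes at 18 h (7.14%, against 3.78% of all genes). Those higher at 18 h were CCNE1 (0.57, adjusted p = 0.0308), E2F5 and MCM7 (2.29% of all genes were called higher), and those lower were CCND1, CCNE2 and CDKN2AIPNL (1.49% of all genes). Of the 12 fits leaving out 1 array, 3 lost the call of CCNE1 and 8 that of CDKN2AIPNL. Both were also lost with the replicate number as a block and with only the 2 groups. Without 3 h replicate 3 the differences of 18 h from the 1 animal left included PLK1 (-1.34), CCND3 (-1.20), CENPX (-1.39), BUB1 (-1.03), PCNA (-0.81) and CDKN2C (-1.43). E2F5 went the other way (0.64). Without 3 h replicate 1 they included CDK13 (-0.74), PLK3 (-2.53), CDC7 (1.32), CDC26 (0.58) and CDK2AP1 (0.98). The comparison of 3 h with 0 h without 3 h replicate 1 gave -1.49 for CDC7, -1.12 for PLK2 and 4.22 for PLK3. In these fits the 3 h group is 1 array, whose spread is assumed to be that of the other groups. The differences thus restate the value of that animal. Between 18 h and 6 h 0 of the 84 genes were called (0.644% of all genes were called), with 14 at an unadjusted p under 0.05 (1264 of all 9155 genes were). MCM7 at 18 h against 6 h (0.50) passed in the fit that left out either 3 h array. CDKN1A came with the largest fall (-1.22) and CDKN1C with the largest rise (1.21 ± 0.54, adjusted p = 0.432).

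Of the 15 genes that act mainly elsewhere, 4 were called. At 6 h against 0 h 3 were called (20%, against 14.2% of all genes). At 18 h 2 were (13.3%, against 15.9% of all genes). CDKN2AIPNL, named for its likeness to a protein that binds the product of the CDKN2A locus, had 10.27, 10.38, 10.15 and 10.26 at 0 h, 10.35 and 10.00 at 3 h, 9.74, 9.76 and 9.89 at 6 h, and 8.97, 9.70 and 9.36 at 18 h. Its 18 h arrays were the lowest of the 12. At 18 h CDKN2AIPNL fell by 0.92 ± 0.15 on the log2 scale (adjusted p = 0.00323) and kept the call under all alternatives, and each of its 3 probe sets was called (-1.04, -0.92 and -0.86). CDK2AP1, which binds CDK2 and belongs to a chromatin remodelling complex, had 10.27, 10.45, 10.58 and 10.09 at 0 h, 10.98 and 10.09 at 3 h, 11.05, 11.05 and 11.04 at 6 h, and 11.13, 10.98 and 11.11 at 18 h. All 6 arrays at 6 h and 18 h were above the controls, and the 3 h animals were apart. CDK2AP1 rose by 0.70 ± 0.18 at 6 h (adjusted p = 0.0296) and by 0.73 ± 0.18 at 18 h (adjusted p = 0.0224), calls lost in 6 and 5 of the 12 fits leaving out 1 array. CDK5RAP1 fell by 0.42 ± 0.12 on the log2 scale at 6 h (adjusted p = 0.0401) and CDK5RAP3, an adaptor of protein modification by UFM1, fell by 0.36 ± 0.10 (adjusted p = 0.0376). Other probe sets of CDK5RAP1 and CDK5RAP3 were not called, and both calls were lost in most of those fits.

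Other cell cycle genes outside the 84, from a list of 158 of which 112 were measured, were called at much the same rate, 9 higher and 7 lower at 6 h (14.3%) and 7 higher and 11 lower at 18 h (16.1%). Among those called, the largest rises at 6 h were MYC (1.26), a growth factor-induced transcription factor, the antiproliferative genes BTG1 (1.15) and BTG3 (1.11), WEE1 (1.02), the kinase that keeps CDK1 inactive, and DBF4 (0.82), the activator of CDC7. The largest falls called at 6 h were the anaphase-promoting complex subunits ANAPC5 (-1.22) and ANAPC10 (-0.91), the p53 target cyclin CCNG1 (-0.83), the origin recognition subunit ORC3 (-0.79) and the cohesin subunit SMC3 (-0.59). At 18 h the largest rises called were STMN1 (1.56), which regulates microtubules, BTG3 (1.40), BTG1 (1.23), LIN52 (0.55), a subunit of the DREAM repressor complex, and CCNI (0.45). The largest falls called were ANAPC5 (-1.27), the DNA polymerase subunit POLD2 (-1.07), ORC3 (-0.66), ANAPC10 (-0.66) and the clamp loader subunit RFC2 (-0.64). Some differences that did not pass were as large, among them GADD45A, a p53 target, at 6 h (1.69, adjusted p = 0.0614) and the mitotic genes KIF23 (-0.98), NUSAP1 (-0.94) and HMMR (-0.76) at 18 h. Of the 112 genes, 85 were higher in 3 h replicate 1 than in 3 h replicate 3, and 52 had their highest value in 3 h replicate 1.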

How the data were processed

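Per the labels, the deposited values are log2 signals from robust multichip average (RMA), in which the authors' software corrected background, normalized between arrays and combined the probes of each set. Its version and the chip definition were not given in the sources used here, and scanner files were not used. The table held 24128 probe sets, and 112 control probe sets were left out. Array medians lay between 7.09 and 7.175. Genes were named through the platform annotation of cattle genes (13292 probe sets with 1 symbol, 86 with several, 10638 with none), and 79 of the 84 symbols were also found in the RefSeq gene table of buffalo. The number of arrays limits the precision.

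Samples were grouped by the labels, which call them separate animals. A mean for each of the 4 groups was fitted with lmFit of limma 3.58.1 in R 4.3.3 over the 12 arrays, followed by contrasts.fit and eBayes at default settings. Tests were two-sided, each time was compared with 0 h and with each other time (6 comparisons), and an F test covered the 3 contrasts with 0 h. P-values were adjusted by Benjamini-Hochberg over 24016 probe sets, and a gene was called at an adjusted p under 0.05. The steps were tested on simulated data. Every gene called in a comparison was named, and values on each array were given for up to 12 called genes with the largest differences and for a list of 27 genes, of which 21 were measured. BUB1B, CDC20 and CENPN were plotted as well, though neither called nor on that list. CENPI, CENPM, CDC7, CDK10, BUB3, RRM1, the uncalled genes named among the 112 others and the genes named beside fits that left out an array were chosen after their values were seen. The 84 genes, the list of 158 other cell cycle genes and the marker lists (luteal, endothelial, mural, fibroblast, macrophage, lymphocyte, neutrophil and granulosa) were chosen with earlier results of these data known. Mural markers were called higher for 3 of 9 at both 6 h and 18 h, fibroblast markers for 0 and 3 of 8, granulosa markers lower for 2 and 1 of 4, and lymphocyte (9) and neutrophil (5) markers for 0.

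Alternatives were adjustment over genes, the mean of a gene's probe sets, leaving out the 40% dimmest probe sets, repeated quantile normalization, median centring, eBayes with trend and robust, the replicate number as a block, control replicates 1 and 4 averaged, only the 2 groups compared, and leaving out each array in turn. No promoter motifs were counted and no sequences are shown.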

Additional observations from a re-analysis of the deposited data

Results flagged for a closer look

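In 3 of the 36 named genes tested, 1 control array lay far from the other 3, with a ratio of gap to range above Dixon's 95% critical value. Chance alone gives this in about 5% of groups. CDK5 read 8.31 in control replicate 3, against 8.62 to 8.66 in the others (ratio 0.89), CDK9 read 9.26 in control replicate 4, against 9.05 to 9.07 (0.94), and CDK5RAP3 read 9.13 in control replicate 3, against 9.35 to 9.36 (0.95).

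Differences from control that themselves differed between times, by limma's test of one treated time against another, were those of CCND1 (6 h minus 3 h -1.14, 18 h minus 3 h -1.33), CCNE1 (18 h minus 3 h 0.57), CCNE2 (18 h minus 3 h -1.31), E2F5 (18 h minus 3 h 0.58), MCM7 (18 h minus 3 h 0.63) and CDKN2AIPNL (18 h minus 3 h -0.84). In CCNE1, E2F5 and PLK2 all arrays of 1 treated time lay above the control mean and all of another below it, with differences that did not pass the test: 6 h minus 3 h was 0.67 in CCNE1, 0.31 in E2F5 and 0.81 in PLK2, and 18 h minus 6 h was -0.48 in PLK2.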

How the results depend on the processing

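Over the 30 called differences of single genes, 628 values were obtained under 21 alternatives. None changed sign and 187 lost the call. Kept under every alternative that tested them were CCND1 (6 h and 18 h against 0 h, 18 h against 3 h), CDKN1A at 6 h, and CDKN2B, MCM7 and CDKN2AIPNL at 18 h against 0 h. The number of the 84 genes called moved more. With the replicate number as a block it was 3 at 6 h against 0 h, 4 at 18 h against 0 h, 0 at 6 h against 3 h, 1 at 18 h against 3 h and 2 for the F test. Same-numbered animals did not deviate together (r of -0.26 to 0.191 over 15 pairs, 3 above 0.1), so the numbers were not taken to pair the animals. With control replicates 1 and 4 averaged it was 4 at 6 h and 5 at 18 h against 0 h and 5 for the F test, and with trend and robust moderation 7 at 18 h against 0 h. At 6 h against 3 h, where 1 gene was called, it was 0 with the mean of probe sets or only the 2 groups, and 2 with the dim filter or repeated quantile normalization. At 18 h against 3 h it was 1 with only the 2 groups, and at 18 h against 6 h 1 (CENPI) when adjusted over genes.

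Leaving out 1 array gave 0 to 3 calls at 3 h, 3 to 14 at 6 h and 5 to 15 at 18 h against 0 h, 0 to 7 at 6 h and 2 to 15 at 18 h against 3 h, 0 to 2 at 18 h against 6 h, and 5 to 25 for the F test. These ranges include the fits that keep 1 array at 3 h, and the shares of all genes called in them were not counted. The count at 18 h against 3 h was 2 without 18 h replicate 1. The single call at 6 h against 3 h (CCND1) was not made without control replicate 2 or 4, 3 h replicate 1 or any 6 h or 18 h array. The F count was 25 without 3 h replicate 3 and 5 to 7 without control replicate 1 or 4, 6 h replicate 1 or 2 or 18 h replicate 1 or 2. The cause of these moves was not tested, other than that each such fit holds fewer animals. The median difference of all probe sets lay between -0.04 and 0.02 in every comparison, as deposited and under the scalings tried. Genes at low signal, such as CDKN2B and CCNE2, are measured with compressed differences, and with 2 to 4 animals a group small changes could be missed.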

Other observations

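The probe set of CDK5R1, a CDK5 activator, lay between 14.24 and 14.40 on all 12 arrays, near the highest value of the table (15.328), where little room is left for a rise. The second probe set of CDK10, a kinase with a role in transcription, gave -0.27 ± 0.08 at 18 h against 0 h (adjusted p = 0.0490, limma), while the brighter one used for the gene gave -0.08 (adjusted p = 0.709). The brightest probe set of CDKN2AIPNL differed by -0.47 ± 0.15 at 6 h (adjusted p = 0.0735), and another of its probe sets fell by 0.66 ± 0.12 on the log2 scale (adjusted p = 0.00653). Under alternative settings, CCNE1 was called at 6 h against 3 h with the dim filter and with repeated quantile normalization, CENPI at 6 h against 0 h with repeated quantile normalization, and CDKN2B at 18 h against 3 h when adjusted over genes.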
